A study of Mus musculus with 12 samples.

Results

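The 44 genes described here encode enzymes that add or remove methyl groups on histone lysines and on DNA, together with the core subunits of Polycomb repressive complex 2 (PRC2). They were taken by mouse gene symbol from a fixed list of such enzymes, all 44 were found among the 49315 genes of the deposited count tables, and the rule uses no measured value, although the list was drawn up with earlier results of these data known. The list holds 25 histone lysine methyltransferase genes and PRC2 subunits, 13 lysine demethylases, 3 DNA methyltransferases and 3 TET dioxygenases.

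Methyl marks on histone tails and on cytosine help to set which genes a cell can read. Marks on H3K4, H3K36 and H3K79 accompany active genes, while marks on H3K9, H3K27 and cytosine in CpG dinucleotides accompany silent ones. Writers place each mark and erasers remove it, and both groups of enzymes have been studied in the retina because mammalian Müller glia, unlike those of fish, do not readily return to a progenitor state after injury.

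RNA was sequenced from primary cultures of wild-type mouse Müller glia, the radial glia of the retina, grown on the other side of a transwell membrane from cells of the retinal pigment epithelium (RPE). The RPE, not the glia, had received 100 nM PNU-282987 (PNU), which activates nicotinic acetylcholine receptors of the α7 type, or DMSO as solvent. The 4 groups were the glia facing PNU-treated RPE for 6 h, those facing DMSO-treated RPE for 6 h, and the same PNU and DMSO arms at 2 h. Each group had 3 libraries, and the cells of every group had been passaged 4 times. The solvent is given as 0.1% DMSO in one place and as 1% in another. The sample titles call the 3 libraries of a group biological replicates ("biol rep"). Nothing states whether they came from separate cultures or animals. Each p-value therefore reflects no more than the scatter among these samples, which may be technical.

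Library totals ran from 44332013 to 66518799 counts, and levels are given as counts-per-million (CPM) of the library size after TMM scaling. The labelled cell type was only partly borne out by its markers. Of 18 Müller glia genes, 8 had a median over 1 CPM. Among them Vim held 5867 to 7542 CPM, Sox9 63.0 to 305 CPM, Glul 62.0 to 93.8 CPM and Hes1 35.8 to 56.7 CPM. The defining Rlbp1 and Aqp4, by contrast, reached at most 0.296 and 0.214 CPM. Of other cell types, 9 of 10 fibroblast genes and 8 of 11 pericyte and smooth muscle genes passed 1 CPM. Endothelial genes passed it in 0 of 5 cases, and RPE, leukocyte and retinal neuron genes in 1 case each, of 8, 6 and 8. By library, the fibroblast genes summed to 18424.5 to 25080.6 CPM. The 18 Müller glia genes summed to 6136.95 to 7983.07 CPM, most of it Vim in every library. Pericyte and smooth muscle genes summed to 3280.67 to 5052.81 CPM. The share of each cell type was not tested. PNU 6 h replicates 2 and 3, the 3 DMSO 6 h libraries, and PNU 2 h replicates 2 and 3 were nearly identical. Their coefficients of variation by pair were 0.0163 to 0.0223, against 0.148 to 0.384 in the other pairs of a group. They still differed by more than sampling noise, with a mean chi-square per gene of 2.02 to 3.25, and were kept as separate libraries. An alternative that sums them has 2 PNU 6 h, 1 DMSO 6 h, 2 PNU 2 h and 3 DMSO 2 h libraries. With 4 residual degrees of freedom, that alternative has little power. A pair of libraries stood apart from their groups. In DMSO 2 h replicate 3, 28 of the 44 enzymes lay nearer to the PNU 2 h mean than to that of the other DMSO 2 h libraries (77.5% of all genes tested), and in PNU 6 h replicate 1, 28 lay nearer to the DMSO 6 h mean (62.8%). The labels alone do not show whether either library is mislabelled. Both are kept below, and the number of enzymes that passed is also given without them.

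All 44 enzymes were detected and all 44 passed the expression filter that left 17164 genes. The lowest count of any of them in any library was 24, 37 exceeded 10 CPM in every library, and 4 exceeded 100 CPM in every library. Per kilobase of gene length, the median level over 12 libraries ranged from 0.121 CPM per kb for Tet1 to 45.5 CPM per kb for Ehmt2, with a middle value of 5.27. Ehmt2, the H3K9 methyltransferase G9a, was followed by Kmt5a, which monomethylates H4K20, at 21.3, by the maintenance DNA methyltransferase Dnmt1 at 15.8, by the H3K27 demethylase Kdm6b at 11.9 and by the H3K4 methyltransferase Kmt2d at 11.2 CPM per kb. The lowest were Suv39h2, an H3K9 methyltransferase of heterochromatin, at 0.668, the de novo DNA methyltransferase Dnmt3b at 0.211, and Tet1, which oxidises 5-methylcytosine. The ranges of neighbours in this order overlapped, except between Ehmt2 and Kmt5a and between Suv39h2 and Dnmt3b. For 23 genes the highest of the 12 libraries was under 1.5 times the lowest, and for 8 it was over 2 times.

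**Figure D1:**
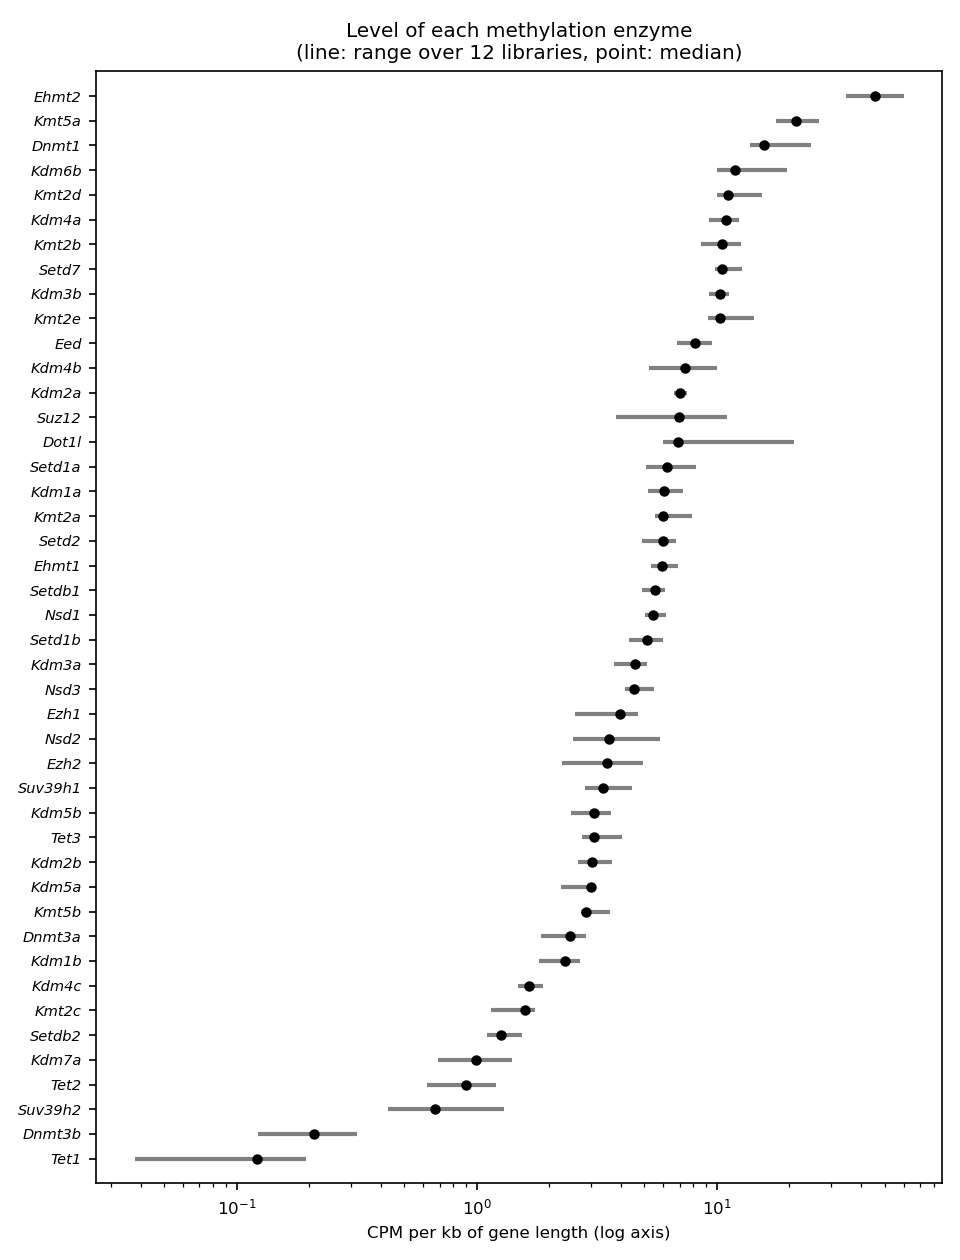
Level of the 44 enzymes in CPM per kb of gene length on a log axis, highest at the top. Points are medians over 12 libraries and lines run from the lowest to the highest library; Ehmt2 stands at 45.5 CPM per kb and Tet1 at 0.121 CPM per kb.

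Dot1l, the H3K79 methyltransferase and the sole enzyme known to write that mark, carried the largest difference of the list between 6 h and 2 h with PNU. At 2 h its level was 183, 159 and 165 CPM in the PNU libraries and 65.3, 54.5 and 103 CPM in the DMSO libraries. Every PNU library lay above every DMSO library, and DMSO replicate 3 stood between the groups. The means were 169 ± 12.6 and 74.4 ± 25.7 CPM (SD, n = 3 each), and Dot1l rose with PNU by a log2 fold change of 1.19 ± 0.18 (SE; edgeR quasi-likelihood test, adjusted p = 0.0310 over all genes tested). This call was lost without PNU 2 h replicate 2 or 3 (adjusted p = 0.159 and 0.180), without DMSO 2 h replicate 1 or 2 (0.117 and 0.0986), in a fit of the 2 h libraries alone (0.266) and when near-identical libraries were summed (0.550). Across 16 alternatives the adjusted p ranged from 1.26e-07 to 0.550 and the log2 fold change from 1.00 to 1.5.

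At 6 h the same gene held 52.1, 53.7 and 53.8 CPM with PNU and 59.0, 59.0 and 61.3 CPM with DMSO. The PNU libraries were all the lower ones, by a log2 value of -0.17 ± 0.18 that did not pass (adjusted p = 0.698). Within PNU, Dot1l fell to 53.2 ± 0.960 CPM at 6 h, against 169 ± 12.6 CPM at 2 h, a log2 fold change of -1.67 ± 0.18 (adjusted p = 0.00151). Within DMSO the corresponding value was -0.32 ± 0.18 (adjusted p = 0.888). The PNU effect at 6 h minus that at 2 h was -1.35 ± 0.25 and missed the threshold (adjusted p = 0.0907). The PNU 2 h libraries enter the contrasts at 2 h, between the times with PNU and of the difference of effects. In bulk RNA such as this, fewer cells of a type and less RNA per cell cannot be told apart.

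Dot1l (ENSMUSG00000061589) lies on the plus strand of GRCm38 chromosome 10, from 80755206 to 80795461 in the deposited annotation. Its promoter is shown because it is 1 of 2 genes on the list that passed between PNU and DMSO, beside that of the other, Dnmt3a (ENSMUSG00000020661, chromosome 12, 3806007 to 3914443, plus strand). The 250 bases before the RefSeq start are printed 5′ to 3′ on the plus strand, from GRCm38.p6, at chr10:80754953-80755202 for Dot1l and chr12:3806730-3806979 for Dnmt3a, the most upstream of 3 Dnmt3a windows, which lies within the deposited bounds of the gene but outside its GENCODE M21 exons. Capitals mark the GC box GGGCGG or its reverse complement, searched on both strands.
Dot1l: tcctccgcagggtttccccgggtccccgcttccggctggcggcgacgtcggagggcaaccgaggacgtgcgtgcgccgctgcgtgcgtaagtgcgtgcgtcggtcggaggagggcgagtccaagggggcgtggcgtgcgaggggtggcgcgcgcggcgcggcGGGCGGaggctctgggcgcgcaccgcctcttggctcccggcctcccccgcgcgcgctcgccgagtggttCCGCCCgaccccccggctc
Dnmt3a: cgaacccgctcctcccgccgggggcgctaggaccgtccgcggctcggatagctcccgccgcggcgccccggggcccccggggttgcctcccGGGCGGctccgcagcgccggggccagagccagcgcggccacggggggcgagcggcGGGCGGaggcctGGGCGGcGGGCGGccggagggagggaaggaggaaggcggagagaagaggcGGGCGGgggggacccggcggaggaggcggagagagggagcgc
The Dot1l window holds 2 GC boxes at a GC content of 78.4%, and the Dnmt3a window holds 5 at 82.4%. A RefSeq window was matched for 33 of the 44 enzymes. The remaining 11 were Kdm2a, Kdm3b, Kdm4b, Kdm5a, Kdm6b, Kmt2b, Kmt2e, Nsd1, Nsd2, Nsd3 and Setd1b. Among the 33, 23 (69.7%) held a GC box in these 250 bases, against 33% of 27025 promoters, and median GC content was 67.6% against 52%. CCAAT, read on both strands, was in 33.3% against 34.5% of all promoters. TGACGTCA, TGANTCA and TTTNNCGC were in 1 of the 33 each, against 1.6%, 6.85% and 4.4% of all promoters. Matches to these letters are descriptions of the sequence and do not mark bound sites.

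Between PNU and DMSO at 2 h, 1 of the 44 enzymes passed, Dot1l, against 0.291% of all genes tested (0.21% higher). At an unadjusted p under 0.05 there were 18 of 44, 16 higher and 2 lower, against 30% of all genes (12.3% higher and 17.7% lower). All 3 PNU libraries lay above all 3 DMSO libraries for 13 enzymes, against 11.4% of genes, and below for 1, against 10.3%. With CPM from library totals, without TMM scaling, 8 enzymes lay above, against 9.06% of genes. A positive log2 fold change was found in 31 of the 44 (48.3% of all genes), and the median log2 value was 0.17, against -0.01 over all genes tested. Without DMSO replicate 3 the number passing was 27, of which 20 were higher and 7 lower, and 43.8% of all genes passed as well. It was 2 when PNU replicate 1 was omitted (0.737% of all genes), and 0 when PNU replicate 2 or 3 or DMSO replicate 1 or 2 was omitted (at most 0.00567%). DESeq2 called 8, against 7.38% of the 32751 genes with any count, and limma-voom 1, against 0.425% of 17164 genes. The DESeq2 shares, here and below, include genes too low for the filter that all 44 enzymes passed. They are not directly comparable with the shares over 17164 genes. In the same libraries 18 proliferation genes summed to 1767 to 1825 CPM with PNU and to 1013, 1027 and 1927 CPM with DMSO, and their part in these counts was not tested.

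H3K4 methyltransferases, which mark promoters and enhancers, stood mostly on the higher side at 2 h. Of 8, 0 passed and 8 had a positive value, against 48.3% of all genes tested. Their median log2 value was 0.25, against -0.01 over all genes. The PNU libraries all lay above the DMSO libraries for 4, against 11.4% of genes. With CPM from library totals this held for 2, Kmt2a and Kmt2d, against 9.06% of genes. Kmt2a, the founding MLL methyltransferase, held 114, 131 and 132 CPM with PNU and 91.9, 98.6 and 104 CPM with DMSO. Kmt2d, which acts at enhancers, held 258, 304 and 308 CPM with PNU against 248, 216 and 228 CPM with DMSO. Kmt2e, a relative whose SET domain is thought to lack catalytic activity, held 149, 142 and 142 CPM with PNU and 97.5, 101 and 141 CPM with DMSO. In all 3 genes the groups were separate, but the gap was narrow for Kmt2e, whose DMSO replicate 3 lay beside the PNU libraries. The log2 values were 0.35 ± 0.08 for Kmt2a (adjusted p = 0.0589), 0.33 ± 0.08 for Kmt2d (0.0656) and 0.35 ± 0.12 for Kmt2e (0.0915). Setd1a, the catalytic subunit of a COMPASS complex, had separate groups as well, at 50.1 to 55.6 CPM with PNU and 34.6 to 49.2 CPM with DMSO (0.36 ± 0.11, adjusted p = 0.0831). Its counts are uncertain, because 52.3% of its annotated exon bases are shared with 9430064I24Rik and Gm49388. Setd1b, its paralogue, and Kmt2b and Kmt2c had overlapping groups, with log2 values of 0.11 ± 0.09, 0.17 ± 0.10 and 0.03 ± 0.12.

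Among erasers, both H3K27 demethylases on the list had separate groups at 2 h, PNU above DMSO, against 11.4% of all genes tested. Kdm6b, also known as JMJD3, stood at 136, 123 and 126 CPM with PNU and at 97.5, 77.7 and 94.1 CPM with DMSO, a log2 value of 0.52 ± 0.10 just short of the threshold (adjusted p = 0.0578). Kdm7a, which acts on H3K9 and H3K27, stood at 12.0, 14.0 and 12.1 CPM with PNU and at 6.91, 10.6 and 9.89 CPM with DMSO (0.48 ± 0.15, adjusted p = 0.0822). Kdm6b passed with library totals and with DESeq2, and Kdm7a with DESeq2. Of the 5 H3K9 demethylases 0 passed and 1 had a positive value, with a median of -0.01. Kdm1a, the H3K4 demethylase LSD1, held 35.0, 37.6 and 36.3 CPM with PNU and 31.0, 29.8 and 32.6 CPM with DMSO (0.22 ± 0.09, adjusted p = 0.120), without overlap.

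TET dioxygenases, which oxidise 5-methylcytosine on the way to its removal, differed in direction. Tet3 held 60.9, 65.2 and 67.6 CPM with PNU and 50.5, 50.8 and 47.8 CPM with DMSO, where replicate 3 was not raised. Tet1 held 0.554, 0.733 and 0.739 CPM with PNU and 2.23, 2.86 and 0.930 CPM with DMSO. It was the 1 enzyme whose PNU libraries all lay below the DMSO libraries at 2 h. The log2 values were 0.38 ± 0.08 for Tet3 (adjusted p = 0.0589) and -1.56 ± 0.42 for Tet1 (adjusted p = 0.0702). Tet2 had overlapping groups, at 15.3 to 20.4 CPM with PNU and 13.1 to 16.2 CPM with DMSO. Per kilobase, the Tet3 level was 78.4 to 96.9 times that of Tet1 in the PNU 2 h libraries and 15.7 to 45.3 times in the DMSO 2 h libraries. At 6 h this ratio was 17.7 to 38.9 with PNU and 18.5 to 20.6 with DMSO.

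**Figure D2:**
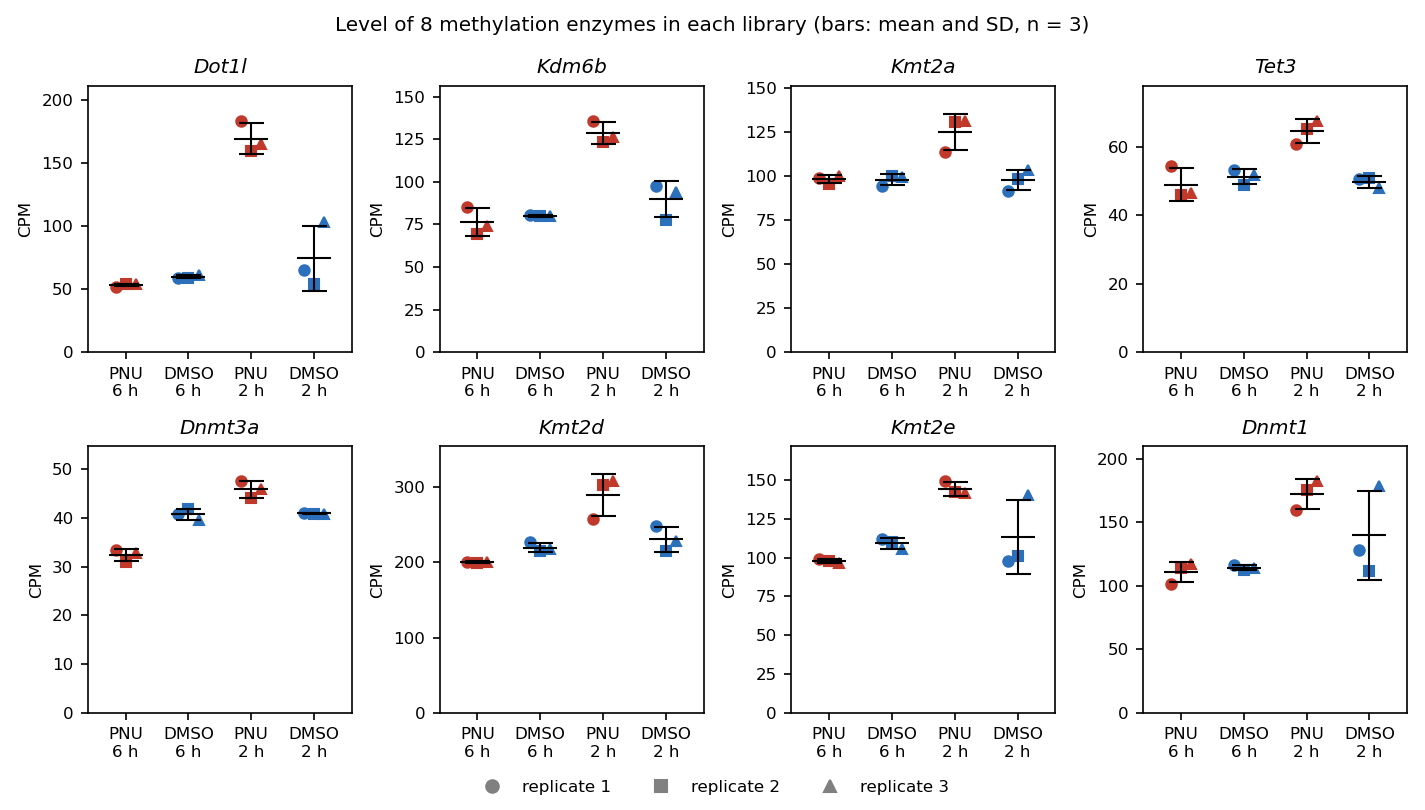
CPM of 8 enzymes in each library, with axes from 0, PNU in red and DMSO in blue; marker shapes are replicates and bars are mean and SD of 3 libraries. The PNU 2 h libraries of Dot1l lie at 159 to 183 CPM, above all other libraries, and DMSO 2 h replicate 3 lies at 103 CPM.

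At 6 h, Dnmt3a, a DNA methyltransferase that places methyl groups on unmodified sites, was the 1 enzyme of 44 that passed, against 1.05% of all genes tested (0.571% higher and 0.484% lower). It held 33.4, 31.0 and 32.8 CPM with PNU and 40.9, 41.9 and 39.6 CPM with DMSO. The groups were separate and each was narrow. Dnmt3a fell to 32.4 ± 1.27 CPM with PNU, against 40.8 ± 1.14 CPM with DMSO (SD, n = 3 each), a log2 fold change of -0.33 ± 0.07 (SE; edgeR, adjusted p = 0.0398). The call was lost without PNU 6 h replicate 2 or 3 (adjusted p = 0.227 and 0.186), without DMSO 6 h replicate 1, 2 or 3 (0.198, 0.225 and 0.172), with no expression filter (0.150) and with near-identical libraries summed (adjusted p = 1). Its range over 16 alternatives was 0.000301 to 1, while the log2 fold change stayed between -0.35 and -0.30. The other Dnmt genes at 6 h were Dnmt3b, at 1.05, 0.626 and 0.821 CPM with PNU against 1.39, 1.37 and 1.62 CPM with DMSO (-0.81 ± 0.29, adjusted p = 0.2), and Dnmt1, at 102 to 117 CPM with PNU against 112 to 116 CPM with DMSO (-0.04 ± 0.14, adjusted p = 0.916).

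Over the whole list at 6 h, 6 enzymes had an unadjusted p under 0.05, 1 higher and 5 lower, against 15.6% of genes (8.61% higher and 7.02% lower). The PNU libraries lay above the DMSO libraries for 3 enzymes, against 16% of genes, and below for 15, against 18.7%. The median log2 value was -0.06, against -0.00 over all genes tested. Without PNU replicate 1, 4 enzymes passed, against 6% of all genes, and without any other single library at 6 h, 0 passed, against 0.124% to 0.216%. DESeq2 called 3 (2.64% of genes with any count), and a fit of the 6 h libraries alone called 5, against 10.1% of genes. The 6 h DMSO libraries are nearly identical to each other, and their narrow spread enters each of these separations.

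Kdm1b, an H3K4 demethylase known for its role in oocytes, held 10.9, 8.81 and 9.64 CPM with PNU at 6 h and 12.8, 12.7 and 13.0 CPM with DMSO (-0.39 ± 0.11, adjusted p = 0.112). Setd7, which monomethylates H3K4 and several other proteins, held 119, 133 and 137 CPM with PNU and 107, 108 and 108 CPM with DMSO (0.27 ± 0.08, adjusted p = 0.120). Both had separate groups, and both passed with DESeq2 and in a fit of the 6 h libraries alone. Ehmt1, the H3K9 methyltransferase GLP and partner of Ehmt2, held 43.2 to 48.2 CPM with PNU and 52.4 to 55.0 CPM with DMSO (-0.21 ± 0.08, adjusted p = 0.246). Kmt2c held 32.3, 23.4 and 23.2 CPM with PNU and 32.3 to 32.8 CPM with DMSO (-0.31 ± 0.12, adjusted p = 0.254), its replicate 1 lying beside the DMSO libraries. Setd1b, Kdm2b and Kmt2b had log2 values of -0.20 ± 0.09, -0.17 ± 0.09 and -0.16 ± 0.10, and Kmt5a 0.22 ± 0.13, with adjusted p-values of 0.333, 0.358, 0.468 and 0.470.

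Other measures also moved between the groups at 6 h. Pericyte and smooth muscle genes summed to 4237 to 4343 CPM with PNU and to 3410 to 3478 CPM with DMSO, with 8 of 11 over 1 CPM. The members did not move together: Acta2 averaged 2245 ± 216 CPM with PNU and 1613 ± 26.6 CPM with DMSO, while Pdgfrb held 1382, 927 and 959 CPM with PNU and 1142 to 1161 CPM with DMSO, and Des 3.54 to 3.89 CPM with PNU and 4.60 to 4.97 CPM with DMSO. Leukocyte genes summed to 7.44 to 9.39 CPM with PNU and to 1.96 to 2.86 CPM with DMSO, with 1 of 6 over 1 CPM and Ptprc at most at 0.232 CPM. Sex-linked genes also differed between libraries. Among these were Kdm5d, a Y-linked H3K4 demethylase, and Uty, the Y-linked partner of Kdm6a, neither of them among the 44. In the 3 PNU 6 h libraries Kdm5d held 0, 1.31 and 1.38 CPM and Uty 0.0175, 1.25 and 1.55 CPM. In the DMSO 6 h libraries Kdm5d had 0 counts, which allows at most 0.0692 CPM for any library, and Uty stood at 0 to 0.0185 CPM. At 2 h they stood at 1.20 and 0.669 CPM in PNU replicate 1, at 1.61 and 1.02 CPM in DMSO replicate 3 and at 0.0308 CPM or less elsewhere. Their X-linked partners Kdm5c and Kdm6a stood at 95.3 to 111 and 9.96 to 14.2 CPM over all 12 libraries, and 0 passed in any of the 5 contrasts (smallest adjusted p 0.212). Xist, an X-linked gene, held 0.436, 2.41 and 2.11 CPM in the PNU 6 h libraries and 0.0473 to 1.20 CPM in all others. Sox2, one of the 18 Müller glia genes, held 8.44 to 9.28 CPM in PNU replicates 2 and 3 at both times. In every other library it held at most 0.254 CPM. A PNU effect at 6 h and a difference between the cultures behind these libraries cannot be told apart. The same limit applies to PNU against DMSO at 2 h and to 6 h against 2 h with PNU.

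The PNU effect at 6 h minus that at 2 h passed for 0 of the 44, against 0.035% of all genes tested. At an unadjusted p under 0.05 there were 11, all lower, against 11.3% of genes (5.3% lower). The median was -0.21, against 0.03 over all genes. Dnmt3a had a value of -0.50 ± 0.09 (adjusted p = 0.0907), Kdm6b of -0.59 ± 0.14 (0.181), Kmt2d of -0.46 ± 0.12 (0.203) and Tet3 of -0.45 ± 0.12 (0.214). DESeq2 called 5, namely Dnmt3a, Dot1l, Kdm6b, Kmt2d and Tet3, against 0.727% of the genes with any count. The number passing in edgeR was 17 without DMSO 2 h replicate 3, against 16.7% of all genes, and 1 without PNU 6 h replicate 1, against 0.801%.

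**Figure D3:**
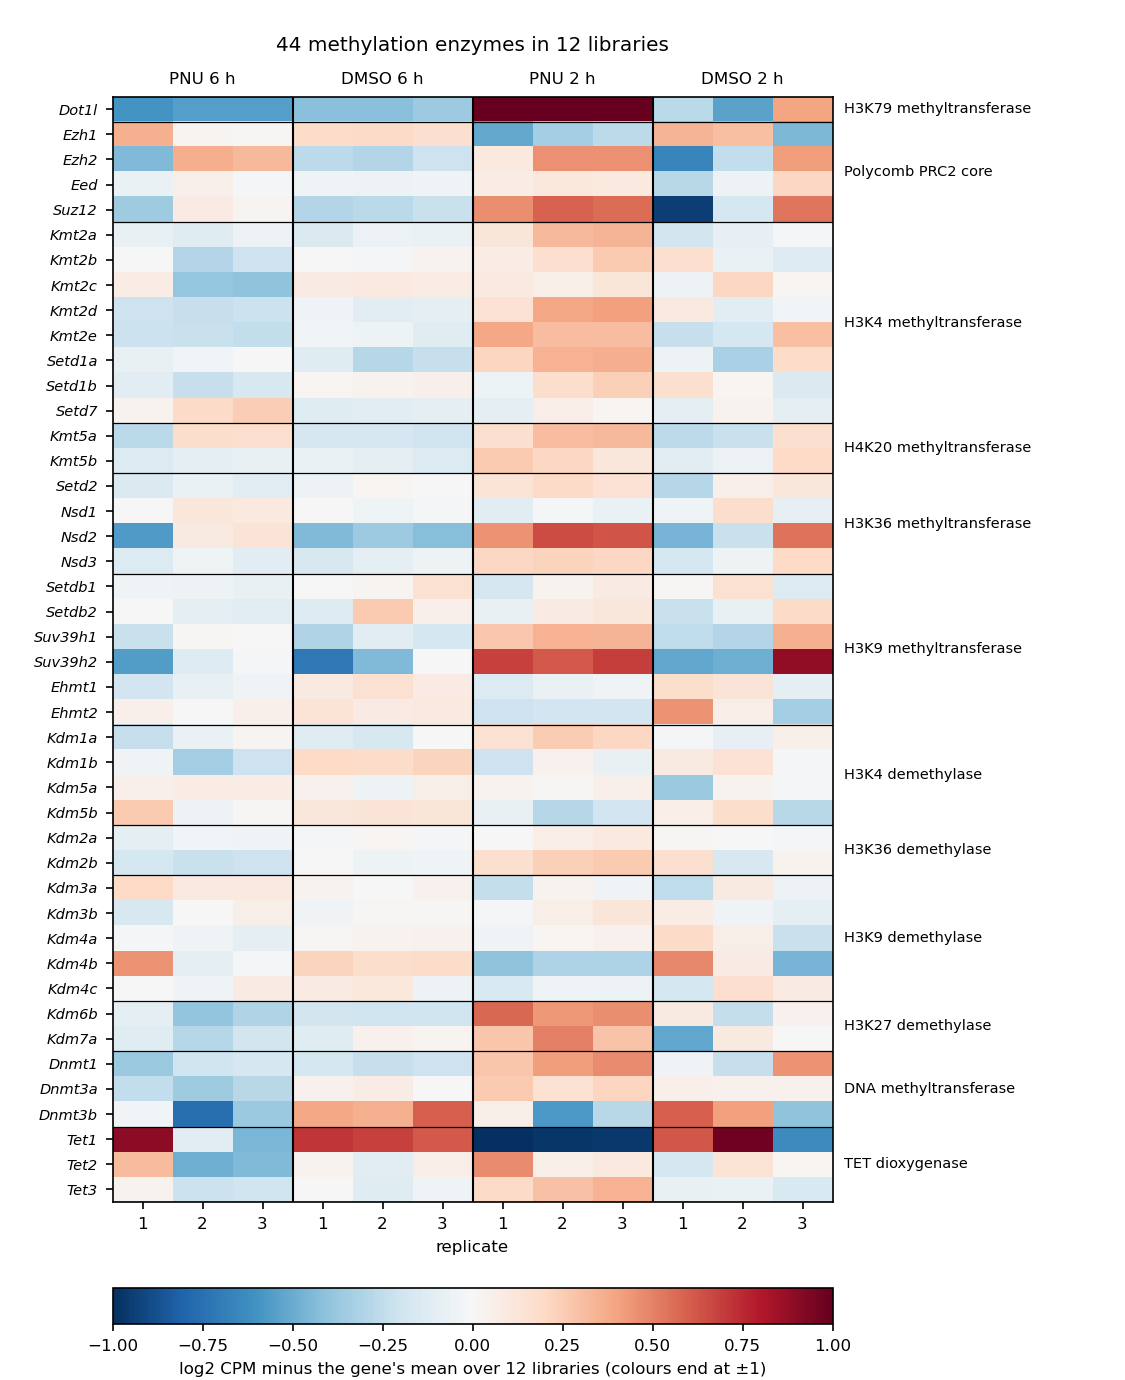
Log2 CPM of the 44 enzymes in each of 12 libraries, minus the mean of the gene, from blue (lower) to red (higher), with rows grouped by the mark each enzyme writes or erases. Dot1l is high in all 3 PNU 2 h libraries, and DMSO 2 h replicate 3 shows the colours of PNU 2 h for Ezh1, Ezh2, Suz12, Nsd2 and Suv39h2.

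Within PNU, 14 of the 44 enzymes fell at 6 h relative to 2 h and 0 rose, against 16.1% of all genes tested (8.66% lower and 7.42% higher). A stricter filter that kept all 44 gave 16, with 15 lower and 1 higher, against 20.7% of 13144 genes. In the reported fit the list held 26 at an unadjusted p under 0.05, against 35.1% of genes. Its median log2 value was -0.28, against 0.03 over all genes. All 3 libraries at 6 h lay below all 3 at 2 h for 23 enzymes, against 26% of genes, and above for 8, against 25.1%. The fallen genes spanned most kinds of mark: 4 of 8 H3K4 methyltransferases, 2 of 3 DNA methyltransferases, both H3K27 demethylases, 1 of 4 H3K36 methyltransferases, 1 of 2 H3K36 demethylases, 1 of 4 H3K4 demethylases, 1 of 2 H4K20 methyltransferases, 1 of 3 TET genes and Dot1l. Of the 4 PRC2 subunits, 6 H3K9 methyltransferases and 5 H3K9 demethylases, 0 passed, while 2, 2 and 1 had an unadjusted p under 0.05. All 3 libraries at 6 h lay below those at 2 h for 2, 2 and 0 of them, and above for 1, 1 and 3. Kdm7a, counted with the H3K27 demethylases, acts on H3K9 as well.

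After Dot1l, the smallest p-values belonged to Dnmt3a and Kdm6b. Dnmt3a stood at 32.4 ± 1.27 CPM at 6 h and 45.9 ± 1.73 CPM at 2 h (log2 fold change -0.50 ± 0.07, adjusted p = 0.00281). Kdm6b stood at 85.4, 69.7 and 74.1 CPM at 6 h and 136, 123 and 126 CPM at 2 h (-0.75 ± 0.10, adjusted p = 0.00292). Kmt2d stood at 201, 199 and 201 CPM at 6 h and 258, 304 and 308 CPM at 2 h (-0.53 ± 0.08, adjusted p = 0.00510). In these 3 genes and Dot1l the times were far apart relative to their spread, and all 4 kept their call in 16 of 17 alternatives, the exception being the sum of near-identical libraries.

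The other 10 fallen genes had log2 fold changes of -0.64 to -0.29. Kdm2b, an H3K36 demethylase that also recruits a Polycomb complex to CpG islands, fell by 0.42 ± 0.09 (adjusted p = 0.0120) to 29.0 ± 0.484 CPM at 6 h, against 39.0 ± 1.38 CPM at 2 h. Tet3 fell to 49.0 ± 4.76 CPM at 6 h, against 64.6 ± 3.41 CPM at 2 h (-0.40 ± 0.08, adjusted p = 0.0131), and Kmt2e to 97.7 ± 1.24 CPM, against 144 ± 4.34 CPM (-0.56 ± 0.12, adjusted p = 0.0136). Kmt2a fell to 98.3 ± 2.32 CPM at 6 h, against 125 ± 10.1 CPM at 2 h (-0.35 ± 0.08, adjusted p = 0.0163). Dnmt1, which copies methylation after replication, fell to 102, 114 and 117 CPM at 6 h, against 159, 176 and 182 CPM at 2 h (-0.64 ± 0.14, adjusted p = 0.0174). Kdm7a fell by 0.56 ± 0.15, Kmt2b by 0.33 ± 0.10, the H3K36 methyltransferase Nsd3 by 0.31 ± 0.09, the H4K20 methyltransferase Kmt5b by 0.29 ± 0.09 and Kdm1a by 0.29 ± 0.09, with adjusted p-values of 0.0307, 0.0442, 0.0375, 0.0416 and 0.0421. These last 5 kept their call in 7 to 9 of 17 alternatives, and Kdm2b, Tet3, Kmt2e, Kmt2a and Dnmt1 in 12 to 14.

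Leaving out single libraries lowered the number that passed. It was 5 without PNU 2 h replicate 2, 4 without PNU 2 h replicate 3, 5 without PNU 6 h replicate 2 and 6 without PNU 6 h replicate 3, while 3.21% to 5.09% of all genes passed. It was 10 without PNU 2 h replicate 1 (6.27% of genes) and 12 without PNU 6 h replicate 1 (9.71%). With the replicate number as a block in the PNU libraries alone, 24 enzymes passed, 3 higher and 21 lower, against 32.7% of genes, and all 14 were among them. With the block in the fit over all 12 libraries, 15 passed, against 16.6% of genes, and Kmt5b did not (adjusted p = 0.0554). With the libraries that stood apart left out, 27 passed, 4 higher and 23 lower, against 35.4% of genes. With near-identical libraries summed, 0 enzymes and 0 of 18400 genes passed.

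With DMSO, 0 of the 44 passed between 6 h and 2 h in edgeR, against 0% of all genes tested, and DESeq2 and limma-voom also called 0. At an unadjusted p under 0.05 there were 0 enzymes, against 4.77% of genes. The smallest adjusted p was 0.888, for Dnmt1, and the median log2 value was 0.00. For the 14 genes that fell with PNU, log2 values between the times were -1.67 to -0.29 with PNU and -0.32 to 0.10 with DMSO. The difference between these time effects is the contrast in which 0 enzymes passed. The DMSO 2 h group is the widest of the 4 for many enzymes, with Dnmt1 at 128, 112 and 179 CPM and Dot1l at 65.3, 54.5 and 103 CPM.

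**Figure D4:**
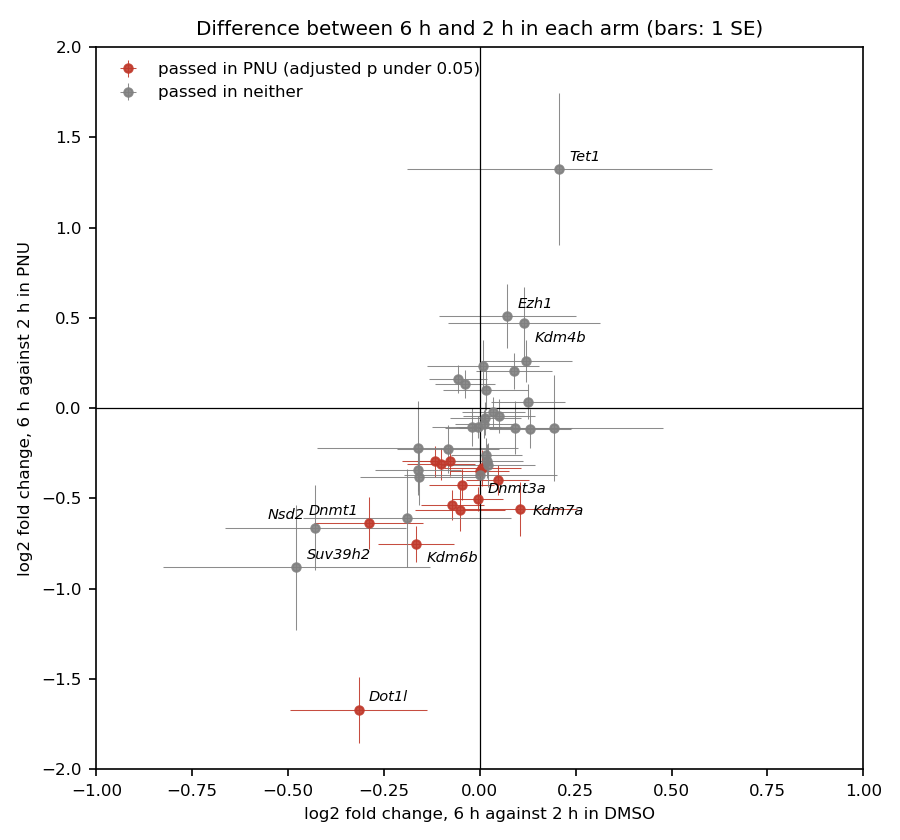
Log2 fold change between 6 h and 2 h of the 44 enzymes with PNU (vertical axis) and with DMSO (horizontal axis, a narrower scale), with bars of 1 SE. The 14 genes that passed with PNU, in red, lie at -1.67 to -0.29 on the vertical axis and -0.32 to 0.10 on the horizontal one.

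PRC2 trimethylates H3K27 with Ezh2 or Ezh1 as its catalytic subunit, together with Eed and Suz12; Ezh2 is typical of dividing cells and Ezh1 of resting ones. Of these 4 subunits, 0 passed in any of the 5 contrasts. Ezh2 held 17.6, 30.8 and 30.1 CPM with PNU at 6 h, 19.6 to 20.8 CPM with DMSO at 6 h, 25.6, 32.9 and 32.9 CPM with PNU at 2 h, and 15.2, 20.2 and 32.1 CPM with DMSO at 2 h. Ezh1 held 35.0, 27.9 and 27.7 CPM with PNU at 6 h, 30.7 to 31.2 CPM with DMSO at 6 h, 19.2, 21.6 and 22.8 CPM with PNU at 2 h, and 34.6, 33.9 and 20.1 CPM with DMSO at 2 h. PNU 6 h replicate 1 was the lowest library of its group for Ezh2 and the highest for Ezh1, and DMSO 2 h replicate 3 was the highest of its group for Ezh2 and the lowest for Ezh1. Between PNU and DMSO at 2 h the log2 values were 0.44 ± 0.26 for Ezh2 (adjusted p = 0.270) and -0.48 ± 0.18 for Ezh1 (adjusted p = 0.114), and the groups overlapped through DMSO replicate 3. Within PNU, between 6 h and 2 h, they were -0.22 ± 0.26 (adjusted p = 0.569) and 0.51 ± 0.18 (adjusted p = 0.0721).

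Per kilobase, the ratio of Ezh2 to Ezh1 was 0.561, 1.23 and 1.21 in the PNU 6 h libraries and 0.698 to 0.754 in the DMSO 6 h libraries. At 2 h it was 1.49, 1.70 and 1.61 with PNU and 0.488, 0.666 and 1.78 with DMSO. PNU 6 h replicate 1 thus lay below the DMSO 6 h libraries, and DMSO 2 h replicate 3 above the PNU 2 h libraries. A sum of 18 proliferation genes, all over 1 CPM, ran in parallel: 859, 1286 and 1276 CPM with PNU at 6 h, 994 to 997 CPM with DMSO at 6 h, 1767, 1825 and 1810 CPM with PNU at 2 h, and 1013, 1027 and 1927 CPM with DMSO at 2 h. The part of proliferation in the levels of these enzymes was not tested.

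In Nsd2, and in Suz12 and Suv39h2, which were chosen after their values were seen, DMSO 2 h replicate 3 also lay among or above the PNU 2 h libraries, and PNU 6 h replicate 1 was the lowest PNU library. Suz12 held 28.1, 38.1 and 36.7 CPM with PNU at 6 h and 29.5 to 30.9 CPM with DMSO, and 49.7, 54.4 and 53.0 CPM with PNU at 2 h and 18.8, 32.0 and 52.2 CPM with DMSO. Nsd2, an H3K36 methyltransferase, held 42.1, 66.3 and 68.0 CPM with PNU at 6 h and 45.8 to 48.4 CPM with DMSO, and 84.9, 97.9 and 96.6 CPM with PNU at 2 h and 45.2, 53.3 and 90.6 CPM with DMSO. Suv39h2 held 2.09, 2.84 and 3.05 CPM with PNU at 6 h and 1.88 to 3.10 CPM with DMSO, and 4.73 to 5.02 CPM with PNU at 2 h and 2.16, 2.20 and 5.74 CPM with DMSO. PNU 6 h replicate 1 lay below the DMSO 6 h libraries for Suz12 and Nsd2 and among them for Suv39h2. Suv39h1, the paralogue of Suv39h2, held 22.1 to 23.3 CPM with PNU at 2 h and 15.3, 14.9 and 23.3 CPM with DMSO (0.35 ± 0.15, adjusted p = 0.153). Within PNU, between 6 h and 2 h, the log2 values were -0.61 ± 0.27 for Suz12, -0.66 ± 0.24 for Nsd2, -0.88 ± 0.35 for Suv39h2 and -0.38 ± 0.15 for Suv39h1, with adjusted p-values of 0.135, 0.0755, 0.0969 and 0.102.

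**Figure D5:**
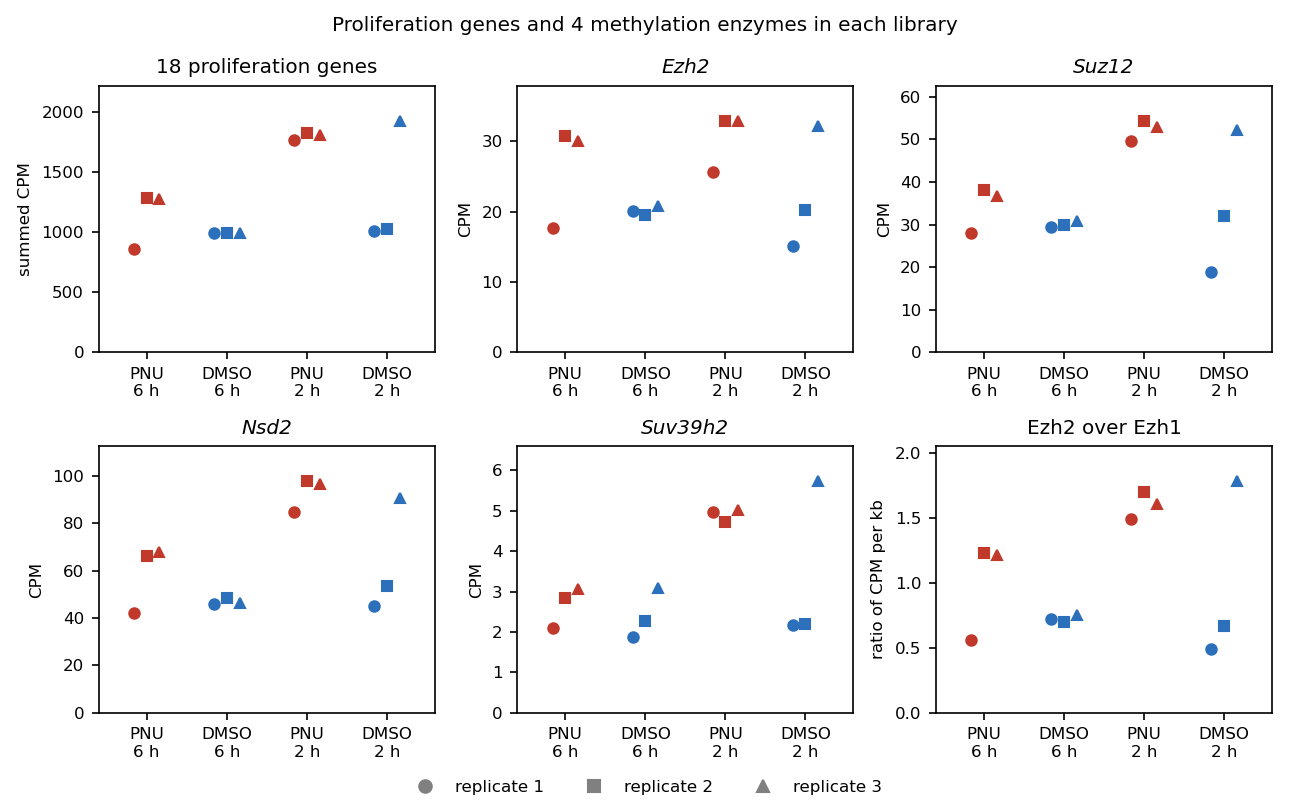
Summed CPM of 18 proliferation genes, CPM of Ezh2, Suz12, Nsd2 and Suv39h2, and the per-kilobase ratio of Ezh2 to Ezh1 in each library, with axes from 0, PNU in red and DMSO in blue. DMSO 2 h replicate 3 stands beside the PNU 2 h libraries in every panel, and PNU 6 h replicate 1 is the lowest PNU library in every panel.

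The remaining genes passed in 0 of the 5 contrasts. Kmt5a held 126, 140 and 141 CPM with PNU at 2 h and 94.0, 96.5 and 126 CPM with DMSO (0.36 ± 0.13, adjusted p = 0.106). Eed, Ehmt2, Kdm2a, Kdm3a, Kdm3b, Kdm4a, Kdm4b, Kdm4c, Kdm5a, Kdm5b, Nsd1, Setd2, Setdb1, Setdb2, Suv39h2 and Suz12 were the 16 members left to a summary. Their log2 values lay between -0.42 (Kdm4b) and 0.61 (Suz12) for PNU against DMSO at 2 h, and between -0.13 (Setdb2) and 0.19 (Suz12) at 6 h. The smallest adjusted p-values were 0.160 at 2 h and 0.597 at 6 h. Within PNU, between 6 h and 2 h, the range was -0.88 (Suv39h2) to 0.47 (Kdm4b), and the smallest adjusted p was 0.0757, for Setd2, which trimethylates H3K36. Ehmt2, the most abundant, held 241 to 250 CPM with PNU and 255 to 265 CPM with DMSO at 6 h, and 209 to 211 CPM with PNU and 191 to 329 CPM with DMSO at 2 h.

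Partners and cofactors of these enzymes were read from the same fit, 125 genes in 10 lists of which 121 were tested. Between PNU and DMSO at 2 h 0 passed (43 at an unadjusted p under 0.05, against 30% of all genes; 24 with DESeq2 and 1 with limma-voom), and at 6 h 2 did, against 1.05% of all genes. Idh2, the mitochondrial isocitrate dehydrogenase that makes the 2-oxoglutarate used by TET and Jumonji enzymes, fell to 67.6, 62.0 and 61.4 CPM with PNU at 6 h, against 95.8, 96.5 and 92.4 CPM with DMSO (-0.58 ± 0.08, adjusted p = 0.00929). Ell2, an elongation factor found with DOT1L partners in super elongation complexes, rose to 66.9, 58.8 and 60.8 CPM with PNU at 6 h, against 38.5, 38.2 and 38.4 CPM with DMSO (0.70 ± 0.11, adjusted p = 0.0169). In both genes the groups were well apart. Both calls were lost without PNU 6 h replicate 2 or 3 or any single DMSO 6 h library (adjusted p = 0.0577 to 0.0700 for Idh2 and 0.0543 to 0.107 for Ell2) and with near-identical libraries summed (adjusted p = 1), and both held without PNU 6 h replicate 1. With the libraries that stood apart left out, 36 partners passed at 6 h and 80 at 2 h, against 28.6% and 52.2% of all genes. For the PNU effect at 6 h minus that at 2 h, and between the times with DMSO, 0 partners passed (22 and 5 at an unadjusted p under 0.05, against 11.3% and 4.77% of all genes), and DESeq2 and limma-voom also called 0. Without DMSO 2 h replicate 3, 31 partners passed in the difference of effects, against 16.7% of all genes.

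Within PNU, 36 partners passed between 6 h and 2 h, 10 higher and 26 lower, against 7.42% and 8.66% of all genes. The number was 8 to 27 with 1 library left out, 67 with the libraries that stood apart left out (35.4% of genes) and 0 with near-identical libraries summed. In that sum every partner call was lost, which was the sole loss for Aff1, Dnmt3l, Hr, Idh1, Mat2a, Riox1 and Rybp. The other 29 kept their call in 7 to 15 alternatives. Among partners of Dot1l, Aff1 and Aff4, scaffolds of super elongation complexes, fell by 1.09 ± 0.22 and 0.51 ± 0.13 (adjusted p = 0.0126 and 0.0240). Aff1 held 79.1, 84.7 and 90.4 CPM at 6 h and 205, 165 and 171 CPM at 2 h. Among subunits of COMPASS and MLL complexes, Wdr5, Paxip1 and Hcfc1 fell by 0.43 ± 0.11, 0.71 ± 0.18 and 0.28 ± 0.08. In the SAM cycle, which supplies the methyl donor, Mat2a, the catalytic subunit that makes S-adenosylmethionine, fell to 120, 142 and 142 CPM at 6 h, against 312, 271 and 269 CPM at 2 h (-1.08 ± 0.21, adjusted p = 0.0116). Mtrr fell by 0.34 ± 0.07, while Mat2b, the regulatory partner of Mat2a, and Nnmt, which consumes S-adenosylmethionine, rose by 0.35 ± 0.07 and 0.67 ± 0.16.

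Among cofactors of DNA methylation, Uhrf1, which brings Dnmt1 to newly copied DNA, fell to 35.5, 48.8 and 47.6 CPM at 6 h, against 69.2, 80.3 and 81.7 CPM at 2 h (-0.81 ± 0.16, adjusted p = 0.0112), and Idh2 fell by 0.35 ± 0.08. Idh1, the cytosolic isocitrate dehydrogenase, rose by 0.97 ± 0.19 (adjusted p = 0.00984). Dnmt3l, a catalytically inactive partner of Dnmt3a, rose by 2.41 ± 0.39 (adjusted p = 0.00602), at 0.454, 0.595 and 0.325 CPM at 6 h and 0.0667 to 0.0923 CPM at 2 h, where 3 counts correspond to 0.0458 to 0.0692 CPM. Among other demethylase genes Hr, Riox1, Jmjd1c and Phf2 fell by 1.60 ± 0.29, 0.89 ± 0.15, 0.66 ± 0.15 and 0.32 ± 0.07. The PRC1 subunit Rybp fell by 1.18 ± 0.19 while Cbx8 rose by 0.68 ± 0.14, and the PRC2 accessory subunits Aebp2 and Phf19 fell by 0.53 ± 0.14 and 0.66 ± 0.20. Among H3K9 partners Wiz fell by 0.38 ± 0.09, while Atf7ip and Zfp462 rose by 0.65 ± 0.14 and 0.47 ± 0.12. Among other methyltransferases Setd6, Smyd2, Prdm4 and Prmt7 fell by 0.44 ± 0.09, 0.40 ± 0.09, 0.51 ± 0.13 and 0.36 ± 0.09, and Prdm8 and Prmt9 rose by 1.49 ± 0.34 and 0.42 ± 0.09. Smyd2, Prdm8, Riox1 and Wiz share 22.8% to 30% of their annotated exon bases with an antisense gene, and Mat2a shares 11.3% with Particl, so their counts are uncertain.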

How the data were processed

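Poly(A) RNA from 12 libraries was analysed. Per the submitters' processing notes, which name fastp 0.23.2, STAR 2.5.2b, featureCounts of Subread 1.5.2, DESeq2 and the GRCm38 build, the authors aligned the reads and counted them per gene. The deposited values are raw counts per gene, with no normalization. Strand use, multi-mapping reads and the annotation release are not given in the sources used here. By the deposited exon coordinates, 7 of the 44 genes share over 5% of their exon bases with another gene, and their counts are uncertain. They are Setd1a, Suv39h1, Suv39h2, Kmt2e, Kdm2b, Eed and Kmt5b. Gene symbols were matched for 48970 of 49315 genes.

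The counts were fitted in R 4.3.3 with edgeR 4.0.16: filterByExpr, TMM scaling (factors 0.958 to 1.03), and 1 robust quasi-likelihood fit of 4 group means over 12 libraries, with 5 contrasts. P-values were adjusted by Benjamini-Hochberg over 17164 genes, with a threshold of 0.05, and no test was adjusted over the list alone. The SE is the log2 fold change divided by the square root of F. The members, lists, contrasts and the naming rule were chosen with earlier results of these data known. The rule gives 28 members with a test: all that passed, those of smallest p in each contrast (10 for PNU against DMSO, 5 otherwise) and 11 fixed genes. It also names up to 4 passing genes per partner list. Alternatives were RLE scaling, library totals, DESeq2 1.42.0, limma-voom (limma 3.58.1), other filters, the contrast's libraries alone, a replicate block, each library left out, near-identical libraries summed, and both libraries that stand apart left out; the block in PNU libraries alone was added after seeing the data.

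Replicate numbers come from the sample titles. Deviations of same-numbered libraries from their group means correlated, across genes, at 0.256, 0.199 and 0.191 between PNU 6 h and PNU 2 h. All were over 0.1. In both groups replicates 2 and 3 are nearly identical, so these values mainly set replicate 1 against the other libraries. Libraries of different number were not compared, so the values cannot show that the numbers pair the libraries. In the other comparisons the values ran from -0.0489 to 0.0798.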

Additional observations from a re-analysis of the deposited data

How the results depend on the processing

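The number of enzymes passing moved with the setting. For PNU against DMSO at 2 h, 1 passed in the reported fit, against 0.291% of all genes. It was 2 with library totals (0.35%), 2 with a stricter filter (0.479% of 13144 genes) and 0 in the 2 h libraries alone (0%). Against genes with any count, it was 2 without a filter (0.427%) and 8 with DESeq2 (7.38%). With both libraries that stand apart left out it was 28, where 52.2% of all genes passed. Leaving out 1 library gave 0 to 27, against 0% to 43.8% of all genes. At 6 h, 1 passed (1.05%). Against genes with any count, it was 3 with DESeq2 (2.64%) and 0 without a filter (0.705%). It was 5 in the 6 h libraries alone (10.1% of all genes) and 12 without the libraries that stand apart (28.6%). With 1 library left out it was 0 to 4, against 0.124% to 6% of all genes. For the PNU effect at 6 h minus at 2 h, 0 passed (0.035% of all genes). It was 5 with DESeq2 (0.727% of genes with any count) and 22 without the libraries that stand apart (21.8%). With 1 library left out it was 0 to 17, against 0% to 16.7% of all genes. For 6 h against 2 h in PNU, 14 passed (16.1% of all genes), against 10 with library totals (16.5%) and 16 with a stricter filter (20.7% of 13144 genes). It was 25 in the PNU libraries alone (32.1%) and 27 without the libraries that stand apart (35.4%). With 1 library left out it was 4 to 12, against 3.21% to 9.71% of all genes. For 6 h against 2 h in DMSO, 0 passed under every alternative run, against at most 0.672% of all genes. With near-identical libraries summed, 0 of 18400 genes passed in any contrast. That sum left 4 residual degrees of freedom and 1 DMSO 6 h library. The cause of the shifts between settings was not tested.

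With the replicate number as a block, 3 enzymes passed at 2 h (Dot1l, Kdm6b and Kmt2a), against 1.81% of all genes, and 1 at 6 h (1.72%). For time in PNU 15 passed (16.6%). For the difference of effects and for time in DMSO 0 passed, against 0% of all genes in each. The block in the PNU libraries alone gave 24 for time in PNU (32.7%). Whether the numbers pair those libraries could not be shown. Of 743 alternative values for 44 single-gene results, 600 stayed on the same side of the threshold in the same direction, 82 lost their call, 61 gained one and 0 reversed. Both PNU groups and the DMSO 6 h group hold nearly identical libraries, so the replication behind 3 libraries may be lower than 3.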
